A study of Mus musculus with 16 samples.

Results

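Ednrb, Fgfr3, Aqp4, S100b, Gfap and Apoe are 6 genes that mark astrocytes in the central nervous system, and they were described here across spinal cords of spastic, B6C3Fe and control mice. They were chosen by symbol: every probe set that the platform annotation gives to 1 of these symbols was taken, which found 10 of the 12488 probe sets on the array. The RNA was measured on 16 single-colour arrays. The spastic group had 6 arrays of mice titled 2, 3, 3+ and 6 months old, the B6C3Fe group 2 arrays of males titled 1 month old, and the control group 8 arrays of both sexes titled 9 or 12 months old. B6C3Fe is a hybrid mouse stock. The spastic mutation lies in Glrb, which encodes a subunit of the receptor for the inhibitory transmitter glycine, and homozygous mice show rigidity and tremor. The genotype of the controls beyond that name, the meaning of the titles sev and M among the spastic arrays, and the number of animals behind an array are not given in the sources used here. Group and age changed together, so the effects of genotype and age cannot be told apart in any comparison with the spastic group.

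Pairs of arrays titled alike except for a final a or b were averaged to 5 spastic, 1 B6C3Fe and 4 control samples. Of these samples 6 were means of 2 arrays and 4 were single arrays. The single arrays were all spastic (Spa1, Spa2, 3+ months and sev), so averaging alone narrows the controls relative to them. Nothing says that samples or arrays came from separate animals, so p-values measure only the spread between these samples. Glrb had a log2 intensity of 9.92 to 11.11 in spastic samples, 12.95 in the B6C3Fe sample and 12.88 to 13.17 in control samples, so the spastic samples lay apart from the others, and the B6C3Fe sample lay within the control range. The fits use sex as titled. Xist, which is transcribed from the inactive X chromosome of females, was at 10.37 and 10.54 in the 2 spastic samples titled male, and Y-linked Eif2s3y was at the measuring floor of 5.93 in both, so these samples have the female pattern and go against their titled sex. For Ednrb, Aqp4 and S100b, results are given with and without them below. No fit used the sex read from Xist and Eif2s3y. The log2 ratio of the 3-prime to the 5-prime control probe sets of Pcx, a sign of RNA quality, was 2.00 to 2.98 on spastic, 1.67 to 1.89 on B6C3Fe and 1.31 to 2.72 on control arrays. Its medians were 2.37, 1.78 and 1.53 in that order, and the control value of 2.72 came from array a of the 9-month female controls. The same ratio of 3 other control genes did not show a rise of this size from control to spastic arrays. Their medians on spastic, B6C3Fe and control arrays were -0.28, -0.33 and -0.41 for Gapdh, -0.04, -2.25 and 0.28 for Actb, and 1.01, 0.94 and 1.49 for Tfrc. In bulk cord RNA, fewer astrocytes and less RNA per astrocyte cannot be told apart. The spinal cord's own cells were seen in the lists of markers: 22 of 24 other astrocyte genes with a probe set, 9 of 10 oligodendrocyte genes and all 11 neuronal genes had a mean above the filter on dim probe sets. That filter was the 40th percentile of probe set means, so most probe sets are above it by design. Above it were also 9 of 11 microglial, 8 of 11 endothelial, 3 of 6 mural and 1 of 4 ependymal genes.

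Astrocytes tile the grey and white matter, take up potassium and glutamate, supply neurons with lipids and wrap blood vessels with their endfeet. In injury and disease they can become reactive, a state in which Gfap rises. Ednrb is a G-protein-coupled receptor for endothelins and Fgfr3 a tyrosine kinase receptor for fibroblast growth factors. Aqp4 is the water channel of the endfeet, S100b a calcium-binding protein that astrocytes also release, Gfap their intermediate filament and Apoe the carrier of cholesterol and other lipids between brain cells. Transcription factors of the NFI family take part in the start of astrocyte development and bind DNA at the letters TTGGC.

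The promoters of Ednrb and S100b, which were lower in spastic cords, and of Gfap, which was not called, are shown so that the sequence in front of these genes can be set beside their values. Each run holds the 250 bases before the start used in RefSeq's promoter table of GRCm38.p6, read 5′ to 3′ on the gene's strand, and capitals mark TTGGC or its reverse complement GCCAA. Ednrb lies on the minus strand (chr14:103843702-103843951), and its window falls inside the full span of the gene in RefSeq (chr14:103814615-103844508), so it is not the stretch before the gene's outermost end. S100b lies on the plus strand (chr10:76253586-76253835) and Gfap on the minus strand (chr11:102897201-102897450).
Ednrb: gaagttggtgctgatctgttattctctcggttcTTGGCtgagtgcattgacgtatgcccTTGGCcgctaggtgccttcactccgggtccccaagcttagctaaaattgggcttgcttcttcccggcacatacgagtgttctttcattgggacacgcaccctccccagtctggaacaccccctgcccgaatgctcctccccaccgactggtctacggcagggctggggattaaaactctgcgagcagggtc
S100b: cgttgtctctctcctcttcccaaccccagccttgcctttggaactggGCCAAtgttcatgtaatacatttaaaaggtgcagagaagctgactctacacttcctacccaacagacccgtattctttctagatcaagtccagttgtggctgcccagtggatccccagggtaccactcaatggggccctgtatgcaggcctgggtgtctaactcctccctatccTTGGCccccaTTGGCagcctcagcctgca
Gfap: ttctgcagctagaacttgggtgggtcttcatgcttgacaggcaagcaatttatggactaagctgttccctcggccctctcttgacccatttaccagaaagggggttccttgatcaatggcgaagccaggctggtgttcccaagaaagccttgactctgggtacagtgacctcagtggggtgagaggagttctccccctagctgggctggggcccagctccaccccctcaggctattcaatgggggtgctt
The Ednrb window held 2 matches, the S100b window 3 and the Gfap window 0. TTGGC was chosen after the sequences were seen, from 6 motifs searched on both strands, and of 32851 promoter windows of the same length 41.5% held it at least once, 11.5% at least 2 times and 2.68% at least 3 times. The others were ACAATG and ACAAAG of SOX factors, TTCNNNGAA of STAT factors, CAGCTG, an E-box, and TATAAA, the TATA box, held by 10.7%, 16.5%, 7.02%, 13% and 12.4% of windows in that order; none of the 5 was found in any of the 3 windows. A match is only a run of letters and was not tested as a binding site. The windows of Aqp4, Fgfr3 and Apoe were not read individually, so these counts cannot set called genes against genes not called.

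Of the 6 genes, Ednrb, Aqp4 and S100b were lower in spastic than in control cords, and Fgfr3, Gfap and Apoe did not pass the test. The test was limma's on log2 intensities with titled sex in the model, adjusted by Benjamini-Hochberg over all 6427 genes tested, with an adjusted p under 0.05 as the limit for a call. Among the 6427, each probe set with no symbol or with several was counted as a gene of its own. Across all genes 9.93% were called lower and 9.83% higher in this comparison, and the median difference was -0.02 on the log2 scale. All 6 genes had a probe set above the filter; 8 of the 10 probe sets were above it, and Fgfr3 only just, with a mean of 7.64 against a filter of 7.62. On every one of the 6 spastic arrays Ednrb, Aqp4 and S100b lay below every one of the 8 control arrays, which 4.33% of all tested genes did.

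**Figure D1:**
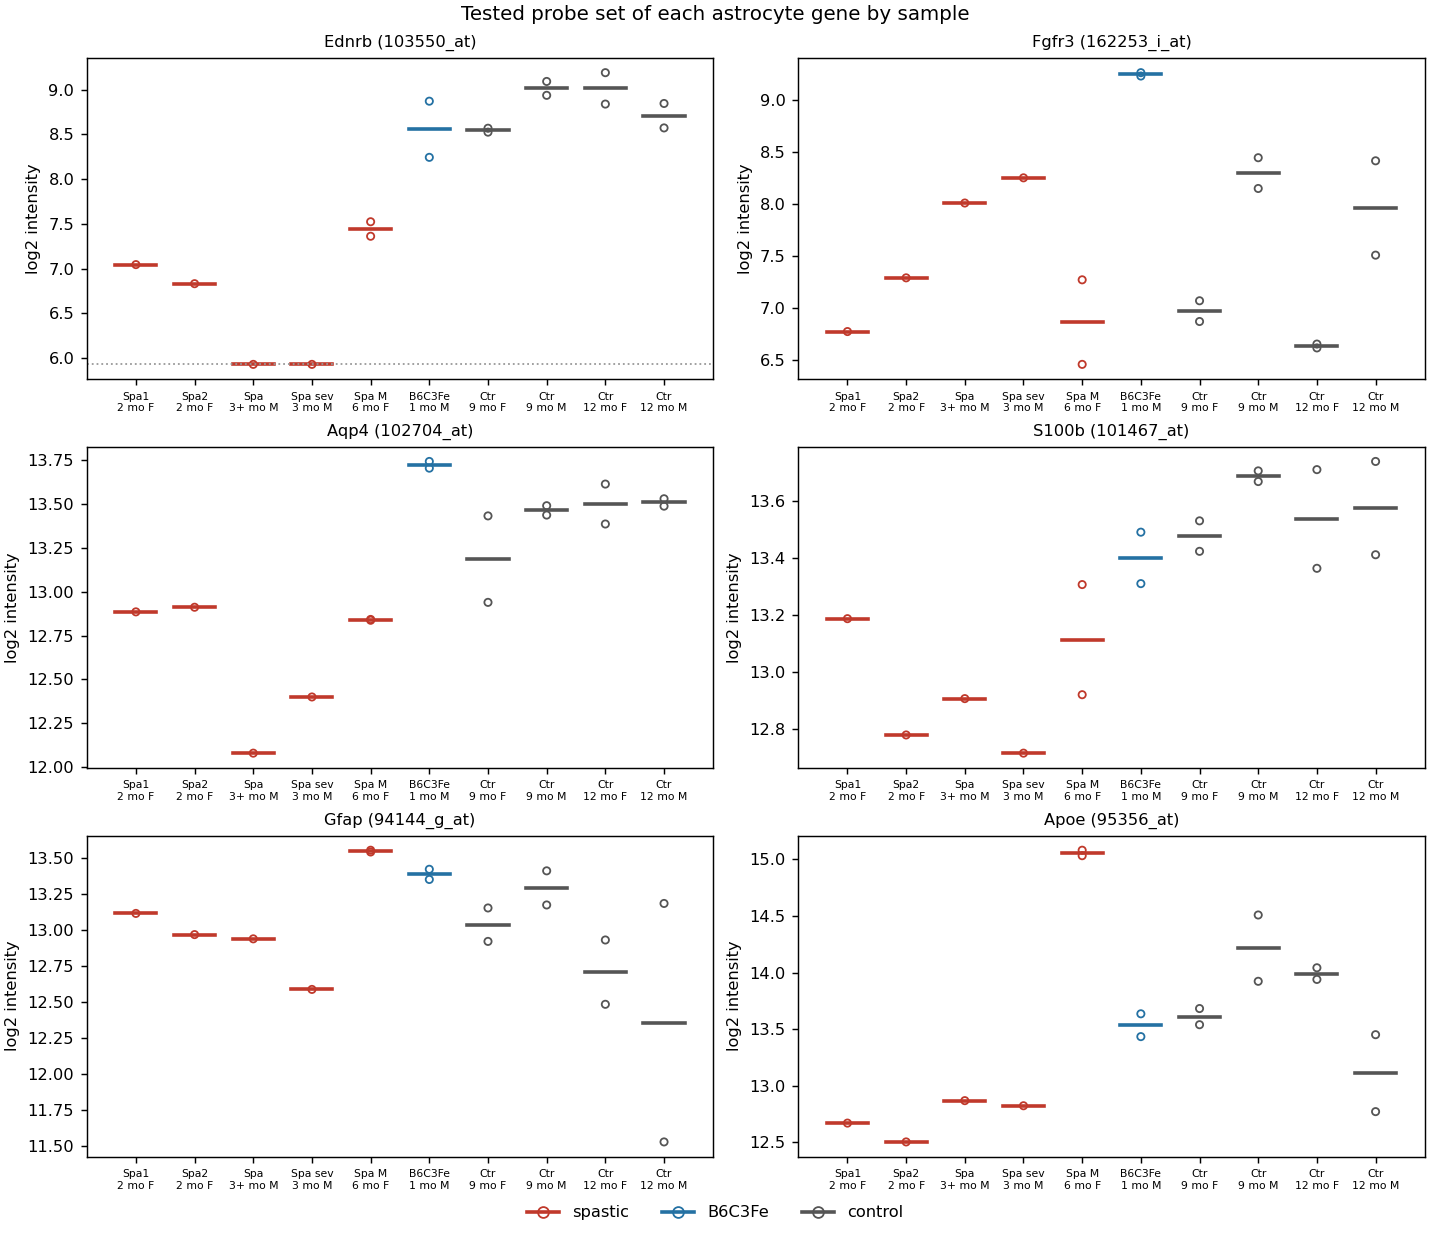
Log2 intensity (y axis) of the tested probe set of each gene in the 5 spastic, 1 B6C3Fe and 4 control samples (x axis, titled name, age in months and sex). Open circles are arrays, bars are sample means and the dotted line is the floor of 5.93; Ednrb of the 2 spastic samples titled male lies on it, and Apoe of the 6-month spastic sample, at 15.06, stands above all other samples.

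Ednrb had the largest difference of the 6 genes. Its log2 intensity was 7.04 and 6.83 in the 2-month spastic samples titled Spa1 and Spa2, 5.93 in the samples titled 3+ months and sev, and 7.44 in the 6-month sample titled M, against 8.55, 9.02, 9.02 and 8.71 in the control samples. The groups did not overlap, with means of 6.63 ± 0.68 (SD, n = 5) in spastic and 8.82 ± 0.23 (SD, n = 4) in control samples. The spastic samples spread more, but 4 of them were single arrays and each control was a mean of 2, so these spreads are not like for like. The 2 spastic samples at 5.93 were read at intensities under the floor, so the spastic mean is an upper bound there. In spastic cords Ednrb was 4.75-fold lower (log2 difference -2.25, SE 0.28, limma adjusted p = 0.0012), the 14th lowest difference of the 6427. With a higher floor, at the 40th percentile, the difference was -1.13 and still called. Without the 2 spastic samples titled male it was -1.68 (limma adjusted p = 0.0175). With the Pcx ratio as a covariate it was -1.92 and no longer called (limma adjusted p = 0.0679); 9 genes in all were called in that fit.

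Against the younger B6C3Fe sample, at 8.56, Ednrb was also lower in every spastic sample, with a spastic mean of 6.63. The fitted log2 difference was -2.29 (SE 0.48, limma adjusted p = 0.0383). It holds the correction for titled sex, fitted at -0.61 for male minus female. That correction rests in part on the 2 spastic samples titled male, which have the female pattern of Xist. It had the 9th lowest difference in that comparison, in which 0.638% of genes were called lower and 17.7% had all spastic arrays below both B6C3Fe arrays. This call was kept in 8 of 24 alternatives. It was lost, among others, without a sex term and without the 2 spastic samples titled male (-1.37 in the latter, limma adjusted p = 0.378). The B6C3Fe sample and the controls lay side by side in Ednrb, with a difference of 0.04 (95% interval -1.02 to 1.10), an interval that leaves room for a 2-fold change in either direction. Spastic samples were thus the lowest, and the B6C3Fe sample and the controls have no order beyond their spread.

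Genes of the endothelin system around Ednrb were mostly too dim to test. Ece1, which cuts endothelins from their precursor, was the only one tested besides Ednrb and did not pass (log2 difference 0.35 for spastic minus control, limma adjusted p = 0.115). The ligand genes Edn1, Edn2 and Edn3 had means of 7.46, 5.94 and 6.60, all below the filter of 7.62. Ednra, the other endothelin receptor, and Ece2 have no probe set here.

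Fgfr3, the other receptor, did not separate spastic from control cords. It was at 6.77, 7.29, 8.01, 8.25 and 6.86 in the spastic samples Spa1, Spa2, 3+ months, sev and M, and at 6.97, 8.30, 6.63 and 7.96 in the controls of 9 months, female and male, and of 12 months, female and male. The 2 groups covered the same range, and the fitted difference was 0.10 (SE 0.21, limma adjusted p = 0.779). The B6C3Fe sample, at 9.25, lay above all others; 11% of all tested genes had both B6C3Fe arrays above every control array. Its difference from the controls was 1.17 (SE 0.36, limma adjusted p = 0.163), and spastic minus B6C3Fe was -1.07 (SE 0.36, limma adjusted p = 0.142), neither of which passed. Both hold the correction for titled sex, and without it they were 1.79 and -1.81 (limma adjusted p = 0.221 and 0.171). B6C3Fe minus control was called for 0.389% of genes and for 0 of the 6 by limma. In the tested probe sets only Fgfr3 of the 6 had an unadjusted limma p under 0.05 (0.00731), where 15% of all tested genes did. Gfap was at 0.0788 by limma there. Its dimmer probe set was at 0.00391 in limma's fit of every probe set above the filter. With every array as its own replicate Fgfr3 passed in this comparison (1.15, limma adjusted p = 0.0268).

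Within the spastic and the control group this Fgfr3 probe set read higher in samples titled male. The 8 arrays titled male ran from 7.51 to 9.27 and the 8 titled female from 6.45 to 7.29, with no overlap. By this probe set Fgfr3 was the only one of 6427 tested genes (0.0156%) whose male-titled arrays all lay above the female-titled ones, and Xist the only one in the opposite direction. For Xist this split was nearly a tie, with the spastic array titled sev, a male title, at 10.54 and the female-titled Spa1 array at 10.55. The fitted difference, male minus female as titled, was 1.24 (SE 0.21, limma adjusted p = 0.262), and 0 genes were called for titled sex by limma, with 6.05% at an unadjusted p under 0.05. The 2 spastic samples titled male were on the high side of Fgfr3 while having the female pattern of Xist, and they were also the lowest of all samples in Ednrb and in Aqp4. The comparison by titled sex was added after the values were seen, and what else differs between these arrays was not tested.

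A second Fgfr3 probe set was dimmer, with a mean below the filter, and went another way. Its sample values were 6.15 to 7.44 in spastic, 6.80 in B6C3Fe and 7.32 to 7.88 in control samples. In a fit of every probe set without a filter, spastic minus control was -0.85 (SE 0.28, limma adjusted p = 0.107), against 0.10 for the brighter probe set, and B6C3Fe minus control was -0.85 (limma adjusted p = 0.524), against 1.17. It also lacked the pattern by titled sex: control males were at 7.71 and 7.32 and control females at 7.88 and 7.34, and the spastic samples titled male, at 6.46 and 7.44, lay on either side of Spa2, at 6.89. The 2 probe sets of this gene thus disagree, and the level of Fgfr3 is uncertain.

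Of 10 other genes of fibroblast growth factor signalling that were tested, 2 were lower in spastic cords and 1 was higher. Over all tested genes 9.93% were called lower and 9.83% higher. Fgf1, a ligand of all the receptors of the family, was 10.53 ± 0.19 (SD, n = 5) in spastic and 11.29 ± 0.21 (SD, n = 4) in control samples (log2 difference -0.74, SE 0.12, limma adjusted p = 0.00298). Fgf9, a ligand that binds Fgfr3, was at -0.78 (SE 0.19, limma adjusted p = 0.0157). The receptor Fgfr1 was higher (0.41, SE 0.12, limma adjusted p = 0.0356). Fgfr2 (-0.19), Fgf18 (-0.13), the adaptor Grb2 (0.25), the transcription factor Etv4 (0.15) and the feedback inhibitors Spry4 (-0.21), Dusp6 (-0.02) and Spred2 (0.00) did not pass. The median over the 10 was -0.07, and Fgf2, Fgf5 and Fgfr4 lay below the filter.

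Aqp4 was the second of the genes called lower, and its 2 probe sets pointed the same way. The brighter was at 12.89, 12.91, 12.08, 12.40 and 12.84 in the spastic samples Spa1, Spa2, 3+ months, sev and M, at 13.72 in the B6C3Fe sample, and at 13.19, 13.46, 13.50 and 13.51 in the controls of 9 months, female and male, and 12 months, female and male. Every spastic sample lay below every other sample, and the 2 spastic samples titled male were the lowest. Aqp4 was 1.77-fold lower in spastic than in control cords (log2 difference -0.82, SE 0.16, limma adjusted p = 0.00593) and 2.41-fold lower than in the B6C3Fe sample (-1.27, SE 0.27, limma adjusted p = 0.0396). The difference from B6C3Fe holds the correction for titled sex, fitted at -0.28 for male minus female, and its call was lost without that term. The spastic mean was 12.62. Between the B6C3Fe sample and the controls it was 0.45 (SE 0.27, limma adjusted p = 0.474), so the order was spastic, then control, then B6C3Fe, the last pair not separated by the test. Without the 2 spastic samples titled male, spastic minus control was -0.46 and no longer called (limma adjusted p = 0.101), spastic minus B6C3Fe was -0.70 (limma adjusted p = 0.403), and corrected for the Pcx ratio spastic minus control was -0.41 (limma adjusted p = 0.288).

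The second Aqp4 probe set showed a larger fall on a dimmer signal. It ran from 9.38 to 11.30 in spastic samples, was 12.59 in the B6C3Fe sample and ran from 11.29 to 12.67 in controls. Array a of the 9-month female controls, at 10.52, was 1.55 below array b of the same title, and it alone made the array ranges of spastic and control overlap. That array had the highest 3-prime to 5-prime ratio of the control arrays for Pcx (2.72). Its ratios for Gapdh (0.99) and Actb (1.27) were the highest of all arrays, and its ratio for Tfrc (0.52) the lowest of the controls. The part of this in its Aqp4 value was not tested. In a fit of every probe set above the filter, spastic minus control was -1.57 (SE 0.37, limma adjusted p = 0.0144) and spastic minus B6C3Fe -2.32 (SE 0.63, limma adjusted p = 0.0922).

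**Figure D2:**
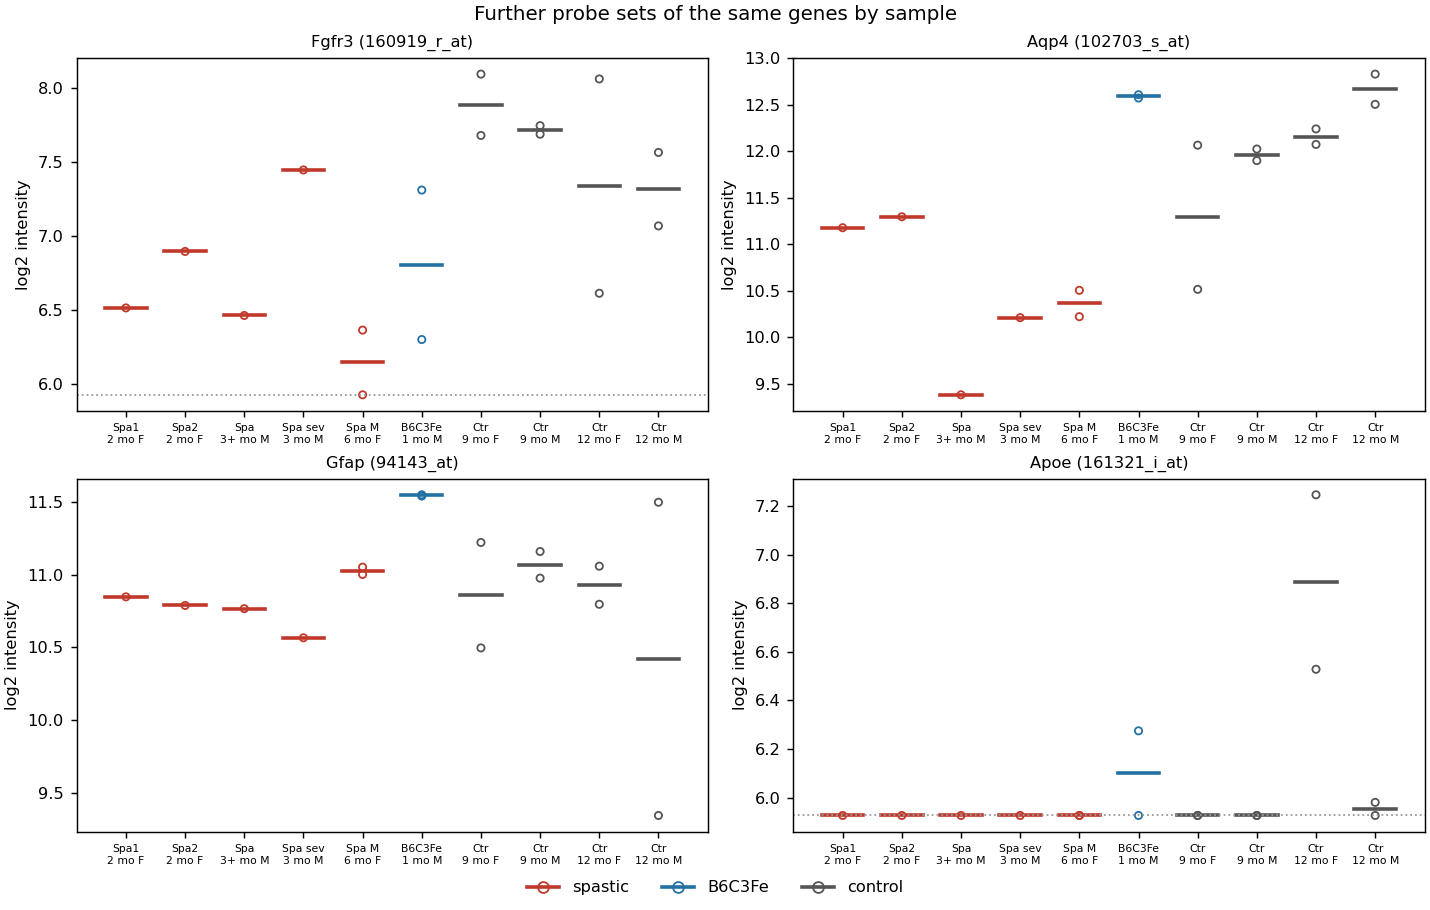
Log2 intensity (y axis) of the further probe sets of Fgfr3, Aqp4, Gfap and Apoe in the 5 spastic, 1 B6C3Fe and 4 control samples (x axis). Open circles are arrays, bars sample means and the dotted line the floor; the second Aqp4 probe set shows the low spastic values of the first, and the second Apoe probe set is on the floor on all 6 spastic arrays.

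Few genes of water transport and of the endfoot could be set beside Aqp4. Of 4 tested, dystroglycan, Dag1, which anchors the endfoot to the basement membrane, was higher in spastic cords (0.50, SE 0.09, limma adjusted p = 0.00526). Its samples were at 11.13 ± 0.09 (SD, n = 5) in spastic and 10.63 ± 0.11 (SD, n = 4) in control cords. Dystrobrevin alpha, Dtna, of the same complex was at -0.68 (limma adjusted p = 0.0655), and the matrix proteins laminin alpha 2, Lama2 (-0.11), and agrin, Agrn (-0.02), did not pass. Aqp1, Aqp2, Aqp7, Aqp8, Aqp9, Sntb1 and Dmd were below the filter, so Aqp4 was the only aquaporin tested.

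S100b had the smallest of the 3 called differences and the tightest controls. It was at 13.19, 12.78, 12.91, 12.71 and 13.11 in the spastic samples Spa1, Spa2, 3+ months, sev and M, at 13.40 in the B6C3Fe sample, and at 13.48, 13.69, 13.54 and 13.58 in the controls of 9 months, female and male, and 12 months, female and male. The groups kept the order spastic, then B6C3Fe, then control with no overlap between spastic and the others. The controls, each a mean of 2 arrays, spanned less than the spastic samples, which were mostly single arrays. S100b was 1.55-fold lower in spastic than in control cords (log2 difference -0.64, SE 0.12, limma adjusted p = 0.00595). It did not pass against the B6C3Fe sample (-0.50, SE 0.21, limma adjusted p = 0.224), nor did B6C3Fe minus control (-0.14, limma adjusted p = 0.798). Without the 2 spastic samples titled male the difference from controls was -0.48 (limma adjusted p = 0.122), and corrected for the Pcx ratio -0.66 (limma adjusted p = 0.13).

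Of 8 other S100 genes tested, 0 were called lower and 1 higher in spastic than in control cords, and 2 had an unadjusted p under 0.05. S100a10, a partner of annexin A2, was the higher one (0.38, SE 0.09, limma adjusted p = 0.0108), and it was the only one called against the B6C3Fe sample too (0.68, SE 0.15, limma adjusted p = 0.0402), where 1.42% of all genes were called higher. Its second, dimmer probe set was at -0.37 for spastic minus control. S100a8 and S100a9, the calprotectin subunits of neutrophils, were at -1.05 and -1.31 without passing (limma adjusted p = 0.255 and 0.172), and S100a9 ranged from 7.87 to 11.92 among spastic samples. S100a4 (-0.59), S100a3 (-0.16), S100a13 (0.09), S100a1 (0.14) and S100a6 (0.36) did not pass, and S100a5, S100g and the receptor Ager were below the filter.

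Gfap, the filament that rises in reactive astrocytes, was not called in any comparison. It was at 13.11, 12.97, 12.94, 12.59 and 13.55 in the spastic samples Spa1, Spa2, 3+ months, sev and M, at 13.39 in the B6C3Fe sample, and at 13.04, 13.29, 12.71 and 12.36 in the controls of 9 months, female and male, and 12 months, female and male. The spastic and control ranges overlapped, and the means were 13.03 ± 0.35 (SD, n = 5) in spastic and 12.85 ± 0.41 (SD, n = 4) in control samples. The difference was 0.16 (95% interval -0.28 to 0.60, limma adjusted p = 0.621), so a rise above 0.60 lay outside the interval. Arrays a and b of the 12-month male controls differed by 1.66, more than any 2 group means.

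The second Gfap probe set gave -0.04 for spastic minus control (SE 0.13, limma adjusted p = 0.864) in the fit of every probe set above the filter. It was higher in the B6C3Fe sample, at 11.54, than in any spastic sample (10.57 to 11.03) or control sample (10.42 to 11.07). B6C3Fe minus control was 0.82 (SE 0.23, limma adjusted p = 0.131) and spastic minus B6C3Fe -0.86 (SE 0.23, limma adjusted p = 0.0831), neither of which passed. The brighter probe set pointed the same way against B6C3Fe, at 0.67 for B6C3Fe minus control (limma adjusted p = 0.393) and -0.51 for spastic minus B6C3Fe (limma adjusted p = 0.425).

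Other genes of filaments and of reactive astrocytes were set beside Gfap. Of 5 tested intermediate filament genes and linkers 0 were called by limma, and 2 had an unadjusted p under 0.05. They were nestin, Nes (0.28, limma adjusted p = 0.0997), plectin, Plec (0.39, limma adjusted p = 0.12), desmin, Des (0.18), Ina (0.10) and peripherin, Prph (0.02). Each of the 5 had a difference above 0, with a median of 0.18, and vimentin, Vim, was below the filter. Of 12 tested genes of reactive astrocytes, ceruloplasmin, Cp, a copper-carrying ferroxidase, was the only one called (0.79, SE 0.23, limma adjusted p = 0.0328). Named after their values were seen, the marker Serpina3n was at 0.17 (limma adjusted p = 0.514), Lcn2 at -0.18 (limma adjusted p = 0.447) and Timp1 at -0.42 (limma adjusted p = 0.401). The list's median was 0.15.

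**Figure D3:**
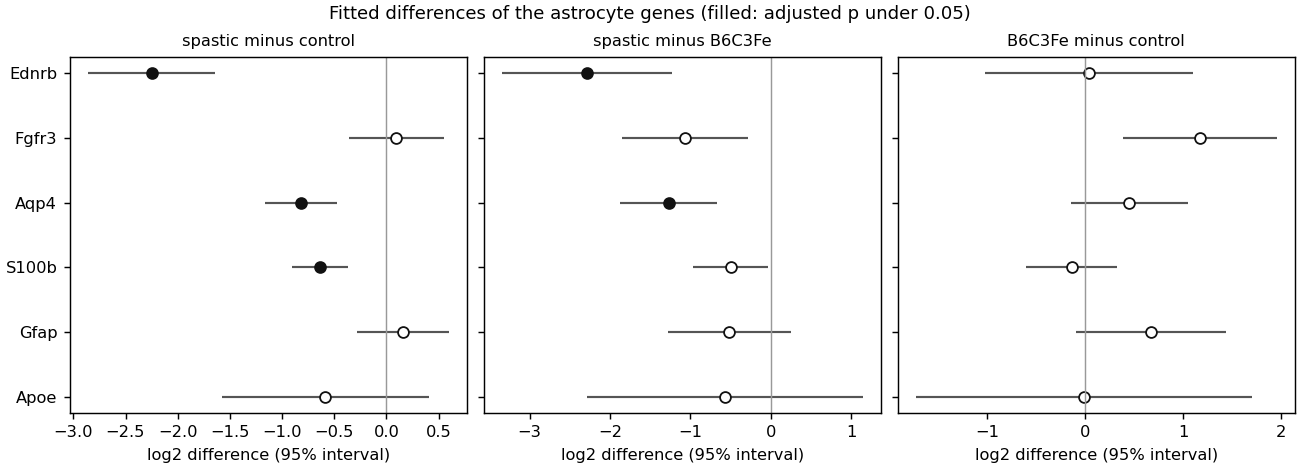
Fitted log2 differences (x axis) of the 6 genes for spastic minus control, spastic minus B6C3Fe and B6C3Fe minus control. Points are limma estimates from the tested probe sets, lines 95% intervals, and filled points passed an adjusted p of 0.05: Ednrb, Aqp4 and S100b in the first panel, and Ednrb and Aqp4 in the second.

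Apoe was set apart by 1 spastic sample. It was at 12.67, 12.50, 12.87 and 12.82 in the spastic samples Spa1, Spa2, 3+ months and sev, and at 15.06 in the 6-month sample M, against 13.53 in the B6C3Fe sample and 13.61, 14.22, 13.99 and 13.11 in the controls of 9 months, female and male, and 12 months, female and male. The first 4 spastic samples lay below every other sample, and the 6-month sample lay above every other sample. Its arrays a and b were read at intensities of 34675 and 33530, so the high value was seen on both. With all samples the difference, spastic minus control, was -0.59 (SE 0.45, limma adjusted p = 0.392). Without the 6-month sample it was -1.02 and was called (limma adjusted p = 0.011). Of 30 alternatives this was the only 1 that called Apoe, and it leaves out the very sample with the extreme value.

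The 6-month sample was high in bright probe sets in general. It exceeded the median of the other spastic samples by 2.31 in Apoe, and by a median of 0.57 over 17 probe sets with a mean above 14 and 0.31 over 195 with a mean of 13 to 14. Among these 212 bright probe sets, 4 had a larger excess than Apoe. After quantile normalization, which gives every array the same distribution, the excess in Apoe was 1.54. The brightest probe set on that sample reached an intensity of 63072, against 16667 to 20700 on the other spastic samples. The part of this in the value of Apoe was not tested beyond these values.

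**Figure D4:**
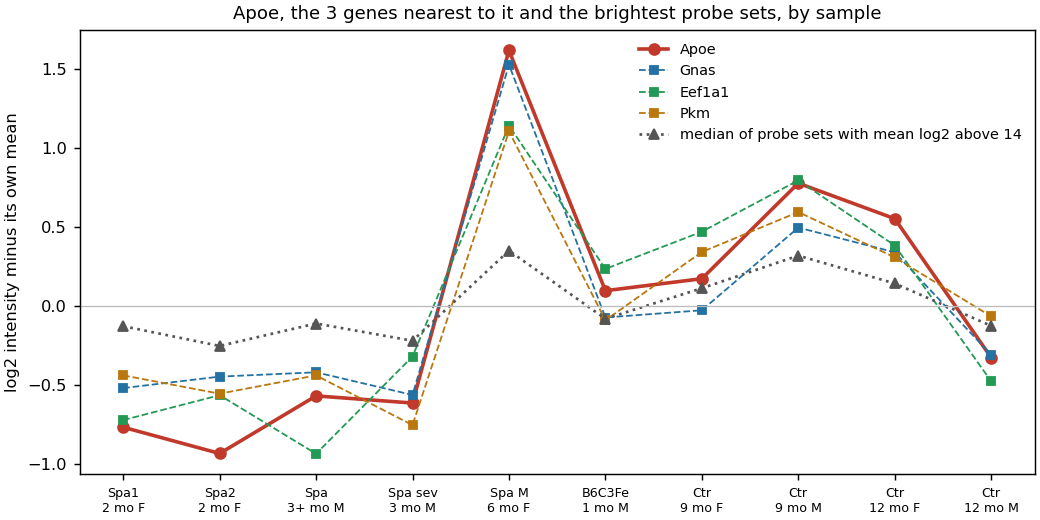
Log2 intensity minus its own mean over the 10 samples (y axis) for Apoe, for Gnas, Eef1a1 and Pkm, and for the median of the probe sets with a mean above 14, by sample (x axis). All 5 lines peak in the 6-month spastic sample, and Apoe has the highest peak.

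The second Apoe probe set was at the floor on all 6 spastic arrays, on 1 of 2 B6C3Fe arrays and on 5 of 8 control arrays, and it gives no fold. Genes of lipid transport around Apoe went both ways. Of 12 tested, 2 were lower and 2 higher in spastic than in control cords, beside 9.93% lower and 9.83% higher of all tested genes. Abca1, which loads cholesterol on Apoe, was at -0.52 (SE 0.15, limma adjusted p = 0.0294), and its dimmer second probe set at -1.54. Apod, another lipid carrier, was at -0.35 (limma adjusted p = 0.0442). The phospholipid transfer protein Pltp was 1.77-fold higher, at 11.61 ± 0.43 (SD, n = 5) in spastic and 10.74 ± 0.15 (SD, n = 4) in control samples (0.82, SE 0.14, limma adjusted p = 0.00399), and the Apoe receptor Lrp1 was at 0.36 (limma adjusted p = 0.0489).

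The other 8 lipid genes did not pass. They were the Apoe receptor Sorl1 (-0.47), the exporter Abcg1 (-0.29), Clu (-0.08), Lipa (0.00), the sterol sensor Nr1h3 (0.05), Scarb1 (0.07), Apoc1 (0.16) and Lcat (0.32). The list's median was 0.03, and the receptor Vldlr and the lipase Lpl were below the filter.

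Age among the controls was the last comparison, 12 minus 9 months, with 2 samples at each age. By limma 0 of the 6 genes and 0 of all 6427 (0%) were called, and 5.38% had an unadjusted p under 0.05. Gfap was at 12.71 and 12.36 at 12 months, against 13.04 and 13.29 at 9 months, with a difference of -0.63 (SE 0.24, limma adjusted p = 0.897); it was the only 1 of the 6 with an unadjusted p under 0.05 (0.0258). The 12.36 is the mean of arrays at 11.53 and 13.18, the second of them above both 9-month female arrays, and the difference was -1.16 with arrays 1a only and -0.30 without the 9-month male controls. Ednrb (0.08), Aqp4 (0.18), S100b (-0.03), Fgfr3 (-0.34) and Apoe (-0.36) did not pass either. Setting the B6C3Fe sample among the controls with log2 of age as a covariate, spastic minus the rest was -2.20 for Ednrb, -1.03 for Aqp4 and -0.56 for S100b, and all 3 were still called. The age term there leaned mainly on the B6C3Fe sample, the only non-spastic one under 9 months and titled by its own stock. This fit therefore cannot tell age from genotype or stock.

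Other astrocyte genes went both ways. Of 22 tested, 1 was lower and 4 were higher in spastic than in control cords, where 9.93% of all tested genes were called lower and 9.83% higher. Their median was -0.13 beside -0.02 over all genes. The bicarbonate transporter Slc4a4 was lower (-0.85, SE 0.26, limma adjusted p = 0.0376). Glutamine synthetase, Glul, was higher (1.50, SE 0.31, limma adjusted p = 0.00809), but a further probe set showed 0.03. The sodium pump subunit Atp1b2 (0.73), the receptor Gpr37l1 (0.39) and the phagocytic bridge protein Mfge8 (0.38), named after its values were seen, were also higher. Against the B6C3Fe sample 0 of the 22 were called by limma, and 3 had an unadjusted p under 0.05. Their summed intensity was 116712 to 206337 in spastic samples, 124362 in the B6C3Fe sample and 122334 to 158305 in control samples, so the groups overlapped.

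**Figure D5:**
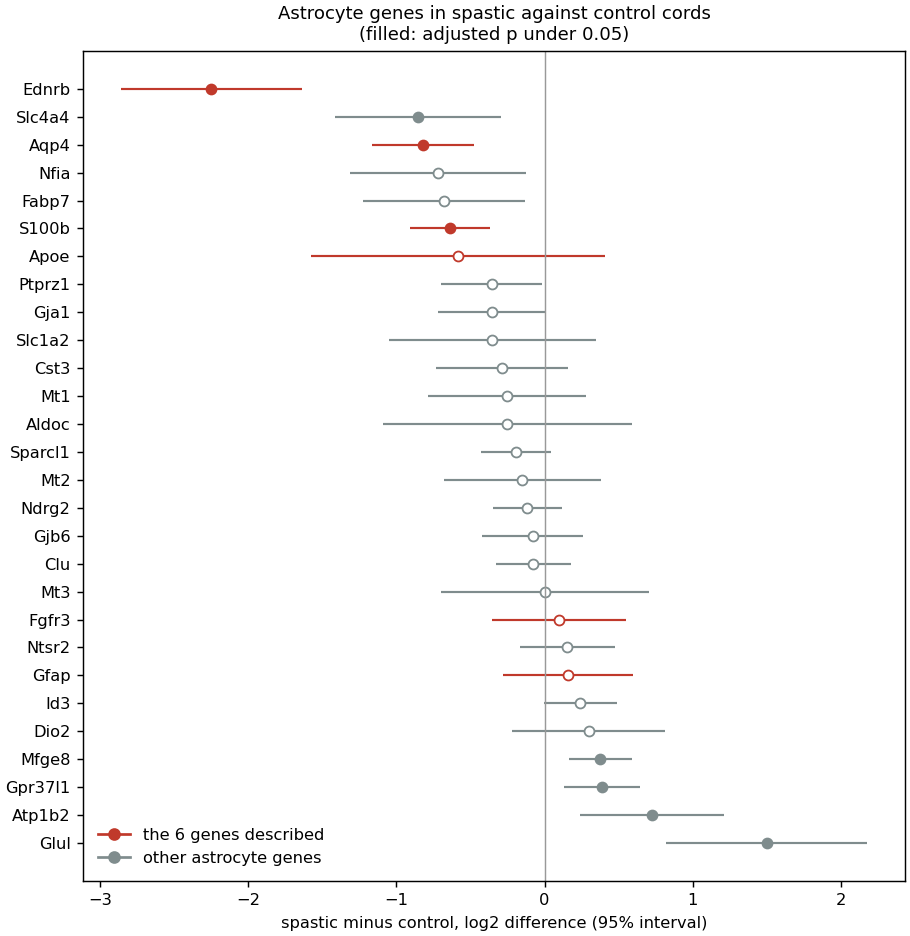
Spastic minus control log2 differences (x axis) of the 6 genes (red) and of 22 other astrocyte genes tested (grey), ordered by size. Points are limma estimates, lines 95% intervals and filled points passed an adjusted p of 0.05; Ednrb lies farthest to the left at -2.25 and Glul farthest to the right at 1.50.

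Markers of other cell types also differed between spastic and control cords, where 9.93% of all tested genes were called lower and 9.83% higher. Of 8 tested endothelial genes 7 were higher, with a median of 1.14, among them Vwf (1.67), Slc2a1 (1.33), Abcb1a (1.26) and Eng (1.24), and their summed intensity was 7062 to 8976 in spastic samples, 3916 in the B6C3Fe sample and 3280 to 4018 in controls. Ednrb, which endothelial cells also make in some vessels, was lower in the same cords in which the endothelial list was higher. Of 3 mural genes, Acta2 (1.78) and Tagln (0.71) were higher, with sums of 1401 to 1866 in spastic samples, 1012 in the B6C3Fe sample and 863 to 1076 in controls. Of 9 microglial genes Mpeg1 (-0.87), Tyrobp (-0.68) and Ctss (-0.58) were lower, with overlapping sums of 9626 to 15507 in spastic samples, 13415 in the B6C3Fe sample and 13879 to 16798 in controls. None of these lists had a tested gene at the floor on every array of a group, and the part of other cell types in the values of the 6 genes was not tested.

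Of 9 oligodendrocyte genes Ugt8a (-3.64) and Car2 (-0.52) were lower and Sox10 (0.43) higher, and of 3 precursor genes Sox4 was higher (0.46). The shares over all tested genes, 9.93% lower and 9.83% higher, stand beside these lists too. Against the B6C3Fe sample, where Ednrb and Aqp4 were called too, 4 of the 9 oligodendrocyte genes were called lower in spastic cords, Ugt8a among them (-5.19), with a median of -0.56. In B6C3Fe minus control 2 of them were called higher. Their summed intensity was 52742 to 82662 in spastic samples, 89200 in the B6C3Fe sample and 64442 to 74176 in controls, so the B6C3Fe sample stood above all others; the part of this in the values of Ednrb and Aqp4 was not tested. Of 11 neuronal genes 3 were lower, Map2 (-2.85), Syt1 (-2.83) and Nefl (-1.10), and 3 higher, Sncb the largest of these (0.83). Of 8 meningeal and matrix genes Dcn was lower (-0.75) and Fn1 higher (0.59), while of 2 Schwann cell genes and 1 ependymal gene 0 were called by limma, and 0 had an unadjusted p under 0.05. Summed intensities of these 6 lists overlapped between spastic and control samples.

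The genes whose pattern over the 10 samples was nearest to each of 5 of the 6 genes were found by the mean absolute difference of centred log2 values, among 5688 genes. The samples share groups, arrays and brightness, so nearness is a description. Nearest to Ednrb were the neuronal RNA-binding protein gene Elavl2 (0.33), the cohesin cofactor Pds5b (0.33) and Eny2 (0.35), where the median over all genes was 1.07. Nearest to Aqp4 were the growth factor Tgfa (0.11), the lysophosphatidic acid receptor Lpar1 (0.14) and Tmem167 (0.14), against a median of 0.46. Tgfa was at 7.21 to 8.55 in spastic samples, 9.16 in the B6C3Fe sample and 8.73 to 9.08 in controls, so it too kept spastic below the rest.

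Nearest to Apoe were the G-protein subunit Gnas (0.19), the translation factor Eef1a1 (0.23) and the glycolytic enzyme Pkm (0.25), against a median of 0.68. These 3 are abundant transcripts, and each was highest in the 6-month spastic sample, at 15.27, 14.62 and 14.48 in that order. For Fgfr3 the nearest genes were Arih1 (0.41), Arnt2 (0.43) and Slc48a1 (0.44), against a median of 0.74. For Gfap they were Rhog (0.17), Myl6b (0.17) and Frg1 (0.18), against 0.36. S100b spanned less than 1 on the log2 scale over the samples and was not compared in this way.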

How the data were processed

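The authors' deposited table holds 1 linear intensity for each probe set on each array; the control probe sets are named as on Affymetrix arrays, and no source used here names the software behind them. Their mean after trimming 2% at each end was 800.4 to 800.5 on every array, so they were taken as scaled by the authors and not normalized again. Median intensity per array was 289 to 383.6, and 14.7% to 24.1% of values were at or under the floor; the number of arrays limits the precision.

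Intensities under the 20th percentile (60.9, log2 5.93) were set to it, log2 was taken, and array pairs a and b of a title were averaged. The 66 control probe sets were left out. Gene names are those of GEO's platform annotation, where 10833 probe sets have 1 symbol, 396 several and 1193 none. Those with several or none were each counted as a gene of their own, so some genes may be counted more than once. All 6 symbols were in RefSeq's table. Probe sets with a mean over arrays above the 40th percentile (7.62) were tested, the brightest for each gene, 6427 in all, with limma 3.58.1 in R 4.3.3 (lmFit, eBayes with a trend, group and titled sex, all samples sharing 1 spread, a group of 1 sample assumed to vary like the others), 2-sided, with Benjamini-Hochberg adjustment. The fit was tested on simulated data. All arrays were drawn independently there, and changes were placed only in genes brighter than Ednrb and Fgfr3, so it does not test the fit for genes as dim as these. Further probe sets were read from fits of every probe set.

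The 6 genes, the 17 gene lists and the tests were chosen with earlier results of these data known. Named genes were the 6, up to 4 called genes a list, every gene of the partner lists (endothelin, FGF, lipid transport, water channel, filament, S100) and the 3 genes nearest to each; others are marked. Alternatives were other floors, filters and normalization, other ways of entering arrays, covariates, and leaving out samples; no floor was added after seeing the data. Promoters are RefSeq's, GRCm38.p6. Aqp4's sequence is not shown.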

Additional observations from a re-analysis of the deposited data

Results flagged for a closer look

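In the spastic group of 5 samples, Apoe was at a log2 intensity of 15.06 in the 6-month sample titled M, and the gap to the next spastic sample took up more of the group's range than Dixon's 95% limit allows. Among the 4 control samples, the 9-month female sample was low in the brighter Aqp4 probe set, at 13.19, with its array a at 12.94 and its array b at 13.43. That array a had the highest Pcx ratio of the control arrays, at 2.72. The 12-month female control was high in the dimmer Apoe probe set, at 6.89, where most other arrays were at the floor of 5.93. Chance alone gives such a gap in about 1 of 20 groups, and 19 groups that were not wholly at the floor were looked at.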

How the results depend on the processing

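The 3 calls of spastic minus control, Ednrb, Aqp4 and S100b, were kept under most alternatives. Their count was 2 with a filter at the 60th percentile, which left Ednrb untested, 1 when the 2 male-titled spastic samples were left out, 1 when only female-titled samples were used (Ednrb both times) and 0 when the Pcx ratio was a covariate, and it was 3 to 4 with 1 sample left out. Over 29 alternatives Ednrb ran from -2.56 to -1.13 and was called in 28; over 30, Aqp4 ran from -1.03 to -0.41 and S100b from -0.69 to -0.48, each called in 27. With letter a or b as a replicate block the 3 were called, Ednrb at -2.06; the letters name arrays of 1 title and pair no samples across groups. The 2 calls of spastic minus B6C3Fe were fragile. The count was 1 with a floor at the 10th percentile, without a floor, with a filter at the 60th percentile and with quantile normalization. It was 0 without a filter, with arrays 1a only, without a trend in eBayes, without a sex term, after leaving out the 2 male-titled spastic samples and after correction for the Pcx ratio, and 0 to 2 with 1 sample left out, 0 without Spa1, the 3+ month, the sev, the 9-month male or the 12-month female control sample. B6C3Fe minus control gained 1 call, Fgfr3, with every array as its own replicate and with the replicate block of letters. Of 12 minus 9 months 0 were called by limma in each alternative. The cause of these changes was not tested.

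Differences that were not called turned their sign. For spastic minus control, Fgfr3 was -0.0202 with a floor at the 40th percentile, -0.0282 without a sex term, -0.10 with the B6C3Fe sample among the controls and -0.49 with log2 of age too, where Gfap was -0.13. For B6C3Fe minus control, Ednrb was -0.28 with the floor at the 40th percentile, -0.0361 with every array as its own replicate, -0.0131 with the sample as a random block, -0.046 with the replicate block of letters, -0.26 without a sex term, -0.30 without the 2 spastic samples titled male and -0.0851 to 0.32 with 1 sample left out. Apoe was 0.0392, 0.0284 and 0.0171 with every array, the random block and the letter block, and -0.26 to 0.37 with 1 sample left out, and S100b was 0.00623 with arrays 1a only. For 12 minus 9 months, Ednrb was -0.0016 with quantile normalization, -0.0472 with arrays 1a only and -0.61 to 0.78 with 1 sample left out, and Aqp4 was -0.18 to 0.54 so. S100b was 0.16 with quantile normalization, 0.0602 with only samples titled female and -0.20 to 0.15 with 1 sample left out, and Apoe was 0.0157 with arrays 1a only, 0.38 with only samples titled female and -0.99 to 0.27 with 1 sample left out.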
